A study of Homo sapiens with 18 samples.

Results

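Immunoglobulin variable (V) segments were described in 18 RNA-seq libraries of human myeloma cell lines. Members were all genes whose symbol starts with IGHV, IGKV or IGLV and a digit, that lie on chromosome 14, 2 or 22, and whose symbol holds no OR, the mark of copies outside these loci. This gave 219 of the 62703 genes counted: 87 heavy (IGHV), 76 kappa (IGKV) and 56 lambda (IGLV) segments. By annotation, 130 were V genes and 89 were V pseudogenes. No count was seen in any library for 95 of them, and 45 reached at least 10 counts in at least 1 library.

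The libraries carry the labels AMO1, H929 (NCI-H929) and LP1, which are established multiple myeloma lines. In each line, 3 libraries are labelled gN1E, a gapmeR (an antisense oligonucleotide that directs cutting of its target RNA) against the long non-coding RNA NEAT1, and 3 are labelled SCR, the control gapmeR. Cells took up the gapmeR without a carrier and were collected at 48 h. Letters name the replicates, and nothing in the labels says that they are separate cultures, so p-values measure only the spread between these libraries. Total counts ran from 28061606 in AMO1 gN1E C to 69937229 in LP1 SCR A. Group medians were 56549069 (AMO1 SCR), 29663430 (AMO1 gN1E), 48902120 (H929 SCR), 56022788 (H929 gN1E), 64358551 (LP1 SCR) and 45406587 (LP1 gN1E).

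A developing B cell joins a V segment to a joining segment, and in heavy chains to a diversity segment as well, and its daughter cells inherit that join. A plasma cell tumour grows from a single such cell, so its main heavy and light V transcripts act as a mark of the clone. In many plasma cells somatic mutation has altered the joined segment.

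The labels were first set against NEAT1 and against the run names in the table headers. NEAT1 had 78.6, 84.8 and 95 CPM (counts divided by the library total, on the usual CPM scale) in AMO1 SCR A, C and D and 477, 580.1 and 532 CPM in AMO1 gN1E A, C and D. In the libraries labelled H929 it had 85.9, 75.9 and 85.9 CPM in SCR A, B and C and 565, 469 and 567 CPM in gN1E A, B and C. In those labelled LP1 it had 121, 156 and 171 CPM in SCR A, B and D and 618, 604 and 788 CPM in gN1E A, B and D. NEAT1 was thus higher in every library labelled gN1E than in every library labelled SCR of the same line, against the label, and the groups did not overlap. The log2 fold change was 2.66 under the AMO1 label, 2.74 under H929 and 2.14 under LP1 (edgeR, SE 0.0744, 0.0683 and 0.190, adjusted p = 5.10e-13, 3.11e-14 and 0.0269). The run names give the other gapmeR in 18 of 18 libraries. They also give LP1 in all 6 libraries labelled H929, H929 in all 6 labelled LP1, and another replicate letter in 4. By gapmeR, NEAT1 was thus lower in every library that its run name gives as gN1E than in every SCR library of that line by run name. Libraries are called by their labels throughout, and every difference by gapmeR is one between labels.

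The segments that carried the pattern are shown by the last 120 bases of their final exon, read from hg38 on the transcribed strand, to show how alike the copies are that reads have to tell apart. For the heavy chain, capitals mark bases that differ from IGHV3-23. The stretches were chr14:106268606-106268725 for IGHV3-23, chr14:106235064-106235183 for IGHV3-21 and chr14:106335082-106335201 for IGHV3-30, all on the minus strand.
IGHV3-23: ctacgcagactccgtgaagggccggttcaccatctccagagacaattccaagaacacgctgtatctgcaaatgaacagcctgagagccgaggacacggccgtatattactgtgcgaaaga
IGHV3-21: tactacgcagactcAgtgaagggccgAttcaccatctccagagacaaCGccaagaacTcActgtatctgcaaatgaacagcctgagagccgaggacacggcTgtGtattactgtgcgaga
IGHV3-30: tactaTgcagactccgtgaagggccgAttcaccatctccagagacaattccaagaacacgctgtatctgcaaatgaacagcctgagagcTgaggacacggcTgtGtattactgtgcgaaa

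For the kappa chain, capitals mark bases that differ from IGKV3-20. The stretches were chr2:89142574-89142693 for IGKV3-20, chr2:89085177-89085296 for IGKV3-15 and chr2:89027171-89027290 for IGKV3-11, on the minus strand, and chr2:90039360-90039479 for IGKV3D-20, the distal copy, on the plus strand.
IGKV3-20: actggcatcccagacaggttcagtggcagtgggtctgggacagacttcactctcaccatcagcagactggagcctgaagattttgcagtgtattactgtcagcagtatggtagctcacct
IGKV3D-20: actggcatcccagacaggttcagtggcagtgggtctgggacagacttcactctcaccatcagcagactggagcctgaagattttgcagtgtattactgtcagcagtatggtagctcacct
IGKV3-15: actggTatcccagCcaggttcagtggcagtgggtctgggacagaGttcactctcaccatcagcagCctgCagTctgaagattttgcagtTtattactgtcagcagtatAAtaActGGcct
IGKV3-11: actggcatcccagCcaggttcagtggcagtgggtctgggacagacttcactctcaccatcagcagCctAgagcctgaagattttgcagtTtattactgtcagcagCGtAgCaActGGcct

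For the lambda chain, capitals mark bases that differ from IGLV3-21. The stretches were chr22:22713084-22713203 for IGLV3-21 and chr22:22881277-22881396 for IGLV3-1, both on the plus strand.
IGLV3-21: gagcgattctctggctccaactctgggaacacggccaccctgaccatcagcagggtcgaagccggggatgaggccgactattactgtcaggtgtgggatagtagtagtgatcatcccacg
IGLV3-1: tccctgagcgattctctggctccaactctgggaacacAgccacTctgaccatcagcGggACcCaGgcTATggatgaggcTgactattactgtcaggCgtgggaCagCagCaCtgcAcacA

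These stretches are reference sequence and not the sequence of a clone. IGKV3D-20 held no difference from IGKV3-20 in the bases shown and 5 differences over the 299 aligned positions of the final exon. Of the 296 stretches of read length (150 bases) in the exons of IGKV3D-20, 0 were found in IGKV3-20. How reads of a clone's own sequence divide between this pair was not tested. IGKV3D-15 shared 117 of 247 stretches with IGKV3-15, and IGHV3-33 shared 59 of 282 with IGHV3-30, so counts within these pairs are uncertain as separate values. Over the final exon they were alike as well, for IGKV3D-15 and IGKV3-15 (98.3% identical) and for IGHV3-33 and IGHV3-30 (98.4%). IGHV3-21 was 91.5% identical to IGHV3-23 and IGHV3-30 was 89.3% identical to it.

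In the genome V genes are known to be followed by a recombination signal. Its usual first 7 bases, CACAGTG, were searched on the transcribed strand just after the last exon. In the first 7 bases they were found for 47 of 130 V genes (36.2%), 10 of 89 V pseudogenes (11.2%) and 17 of 61952 other genes (0.0274%). The window was then widened to 12 bases, after that result was seen. In 12 bases they were found for 102 of 130 V genes (78.5%), 16 of 89 V pseudogenes (18%) and 60 of 61952 other genes (0.0968%). Of the segments printed, the 7 heavy and kappa ones had these letters in the 12 bases, and IGLV3-21 and IGLV3-1 did not.

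Under the AMO1 label, IGHV3-23 and the near-identical kappa pair held almost all V counts. IGHV3-23 had 98455, 102058 and 90118 counts in SCR A, C and D and 95001, 62073 and 55114 counts in gN1E A, C and D. It led in 6 of 6 libraries, with 96.8% ± 0.288 of heavy V counts (SD, n = 6). IGHV3-21 was second in 6 of 6, with 2.78% ± 0.285 (SD, n = 6). For the light chain, IGKV3-20 had 106345, 77235 and 91005 counts in SCR A, C and D and 82338, 42534 and 50486 counts in gN1E A, C and D. It led in 6 of 6 libraries and AMO1 SCR C had its lowest share. IGKV3-20 held 66.5% ± 5.41 of light V counts and IGKV3D-20 held 31.7% ± 5.26 (SD, n = 6 each). Lambda segments made up 0.0800% ± 0.0166 of V counts (SD, n = 6), led by IGLV6-57 and IGLV3-1 with 289 counts each over the 6 libraries.

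Under the LP1 label, a kappa segment stood alone and the heavy class was close to empty. IGKV3-15 had 110771, 94105 and 75748 counts in SCR A, B and D and 94573, 74279 and 64911 counts in gN1E A, B and D. It led in 6 of 6 libraries, with 97.7% ± 2.44 of light V counts (SD, n = 6). Heavy segments summed to between 25 and 71 counts per library, or 0.0566% ± 0.0122 of V counts (SD, n = 6). IGHV2-5 had 135 counts over the 6 libraries and IGHV2-70D had 93, and IGHV2-5 led in 5 of 6. IGLV3-9 led the lambda class with 154 to 201 counts per library, followed by IGLV5-52 with 4 to 20. IGHV3-23 had 0 counts in all 6 libraries, which allows up to 0.00889 CPM (3 counts over the 337583597 counts of the line). Its mean of 1826 CPM under the AMO1 label was at least 205464-fold higher than that floor.

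The second kappa segment by summed counts under the LP1 label, IGKV3-11, was set by 1 library. It had 6287 counts in LP1 SCR B and 50 to 92 counts in the other 5. In LP1 SCR B it took 6.19% of light V counts (95% Wilson interval 6.05 to 6.34), and the median over the 6 libraries was 0.0912%. In the other 5 libraries IGKV3-7, named after its values were seen, was second, and it had 481 to 832 counts over all 6.

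The libraries labelled H929 held the leading segments of AMO1 together with a further heavy and a lambda segment. What cells these libraries hold could not be settled from the files, so values under the H929 label, and comparisons with it, describe these libraries and not a known single clone. IGHV3-23 had 114535, 96888 and 51156 counts in SCR A, B and C and 70541, 97356 and 64045 counts in gN1E A, B and C. It led in 6 of 6 libraries, with 84.4% ± 3.75 of heavy V counts (SD, n = 6). IGHV3-30 had 12437, 11187 and 7269 counts in SCR A, B and C and 13425, 11948 and 14065 counts in gN1E A, B and C. It came second in 6 of 6 libraries, with 12.5% ± 3.15 (SD, n = 6). For the light chains, IGKV3-20 had 56121, 75657 and 30415 counts in SCR A, B and C and 86415, 78677 and 94075 counts in gN1E A, B and C, and SCR C and SCR A were its lowest libraries. IGLV3-21 had 62175, 56877 and 34764 counts in SCR A, B and C and 65941, 63920 and 69180 counts in gN1E A, B and C, and held 99.1% ± 0.0743 of lambda V counts (SD, n = 6). Of all light V counts, IGKV3-20 held 41.3% ± 5.91 and IGLV3-21 held 35.7% ± 1.98 (SD, n = 6 each). By counts IGKV3-20 led the light class in 4 of 6 libraries and IGLV3-21 in SCR A and SCR C. Per kilobase of the counted length, IGKV3-20 led in 6 of 6 and its mean share was 48.1%. Shares are otherwise shares of counts, and per kilobase the leading segments of AMO1 and LP1 were the same ones, with IGHV2-5 ahead in 5 of 6 libraries and IGHV2-70D in 1.

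**Figure D1:**
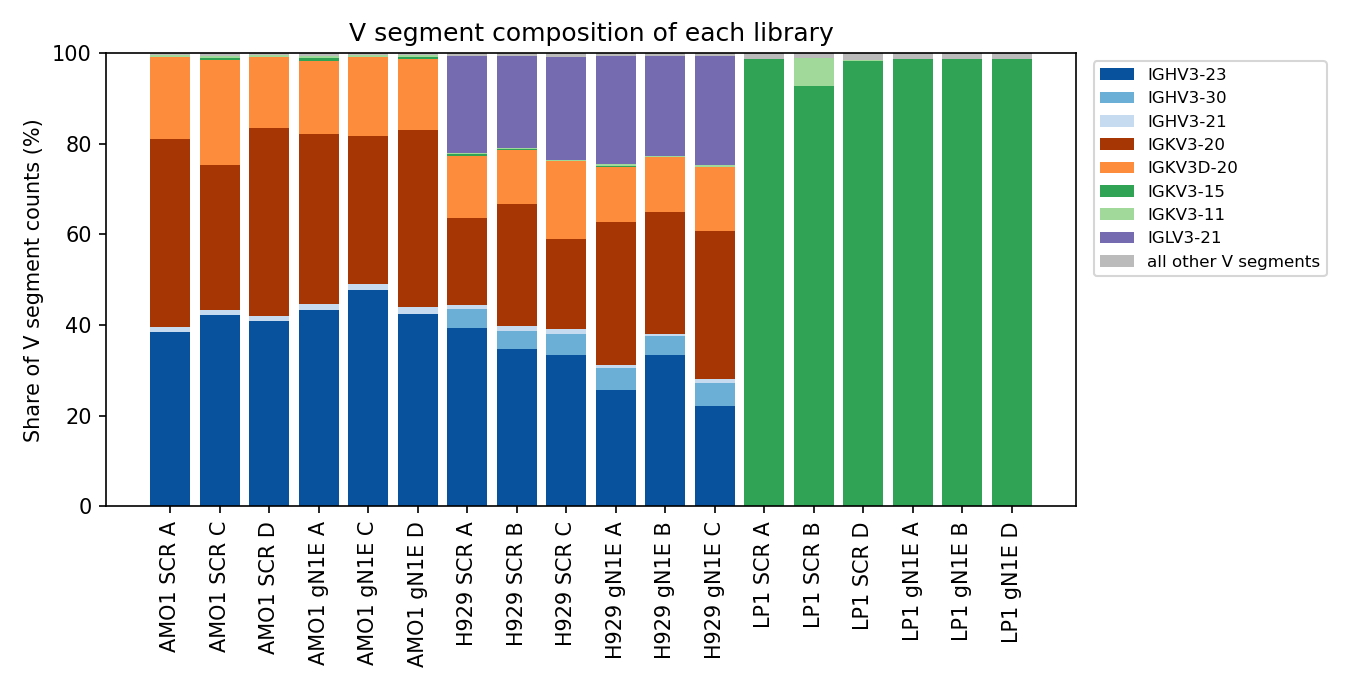
Share of all V segment counts (percent) held by the named segments in each of the 18 libraries, with the remaining segments in grey. IGHV3-23, IGKV3-20 and IGKV3D-20 fill the libraries labelled AMO1, those labelled H929 hold IGLV3-21 and IGHV3-30 as well, and IGKV3-15 fills those labelled LP1.

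At least 10 counts in each H929-label library and at most 3 in any other were seen for 4 segments: IGHV3-30, IGLV3-21, IGHV4-31 and IGHV3-33, the last pair named after their values were seen. IGHV4-31 had 236 to 427 counts there and IGHV3-33 had 24 to 40. No share of all genes under the same rule is given, so the count of segments does not show a trait particular to them. With a mean of at least 1 CPM, 12 segments were seen under the AMO1 label, 16 under H929 and 5 under LP1, and all 12 of AMO1 were among the 16. Here too no share of all genes under the same rule is given, so this sharing is not shown to be particular to V segments.

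The overlap of the V profiles of 2 libraries was taken as the sum, over segments, of the smaller of their shares of V counts. Between libraries labelled AMO1 and H929 it ran from 70.01% to 75.4% (36 pairs). Between AMO1 and LP1 labels it ran from 0.132% to 1.20%, and between H929 and LP1 labels from 0.162% to 0.887%. Within a label it ran from 90.4% to 98.2% for AMO1, 82.5% to 98.0% for H929 and 93.8% to 99.9% for LP1, so each line was more alike within than between labels by this measure.

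**Figure D2:**
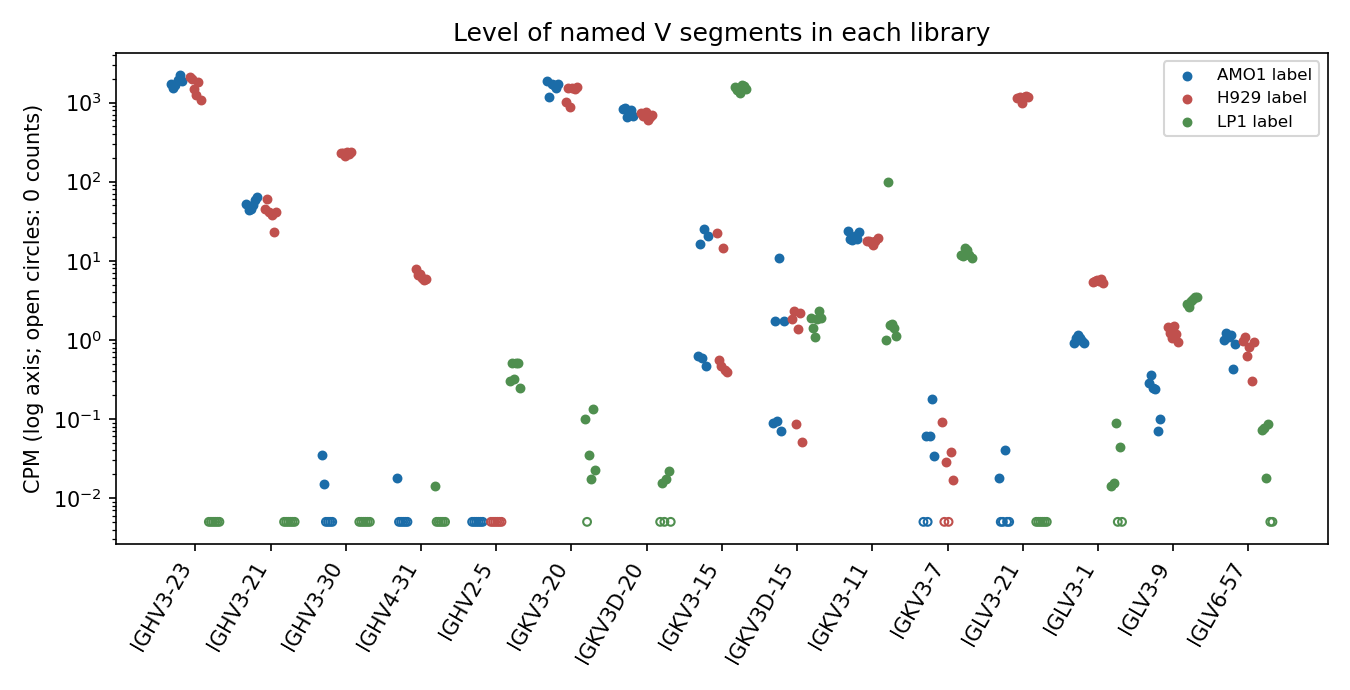
Level in CPM (log axis) of 15 V segments in each library, coloured by line label, with open circles at the foot for 0 counts. IGHV3-23 and IGKV3-20 were at 876 CPM or more in every library labelled AMO1 or H929, and IGKV3-11 had 1 high library under the LP1 label.

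The shared segments were compared between AMO1 and H929 labels in a joint fit over 18 libraries (edgeR's quasi-likelihood test, Benjamini-Hochberg adjustment over all genes). IGHV3-23 had 1826 ± 229 CPM under AMO1 and 1624 ± 414 CPM under H929 (SD, n = 6 each), and the ranges overlapped (log2 fold change 0.18, SE 0.154, adjusted p = 0.391 in edgeR). IGKV3-20 had 1605 ± 244 and 1345 ± 309 CPM (SD, n = 6 each; log2 fold change 0.28, SE 0.154, adjusted p = 0.174 in edgeR), and these ranges overlapped too. That adjusted p fell under the threshold with limma-voom, without AMO1 SCR C or without H929 SCR B, and ranged from 0.0185 to 0.346 over the alternatives. For IGKV3D-20 the fold was small (log2 fold change 0.14, SE 0.0553, adjusted p = 0.0402 in edgeR), and its adjusted p was under 0.05 in 13 of 22 alternatives (range 0.000396 to 0.106). The call was lost with library size only (edgeR, adjusted p = 0.101) and without any one of AMO1 SCR A (adjusted p = 0.105), AMO1 SCR C (adjusted p = 0.102), AMO1 gN1E A (adjusted p = 0.0706), AMO1 gN1E C (adjusted p = 0.106), H929 SCR A (adjusted p = 0.0682), H929 SCR B (adjusted p = 0.0903), H929 gN1E A (adjusted p = 0.0993) or LP1 gN1E A (adjusted p = 0.0519). In this comparison 44.4% of the 26436 genes tested had an adjusted p under 0.05. A missed threshold does not show that the segments were at the same level.

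IGLV3-1, a lambda segment found under both labels, was lower under AMO1, at 1.007 ± 0.101 against 5.57 ± 0.225 CPM (SD, n = 6 each; log2 fold change -2.45, SE 0.135, adjusted p = 9.55e-17 in edgeR). The 6 libraries of each label did not overlap. Of the 12 shared segments, the 10 with the highest levels were named by rule, and the other 6 of these (IGHV3-21, IGHV1-24, IGHV3-7, IGKV3-11, IGKV3D-11 and IGKV3-15) had log2 fold changes between -0.26 and 0.59, with edgeR's adjusted p between 0.127 and 0.845. IGHV3-21 passed with limma-voom (adjusted p = 0.00708), IGKV3-11 without LP1 SCR B (edgeR, adjusted p = 0.0137) and IGKV3D-11 without H929 gN1E A (edgeR, adjusted p = 0.00944). Over the alternatives the adjusted p of these 3 reached 0.307, 0.909 and 0.794. The highest of the 6 folds, 0.59 for IGKV3-15, was -1.07 without AMO1 SCR C, 2.60 without H929 SCR A and 2.43 without H929 gN1E A, and over the alternatives it ranged from -1.07 to 2.62. The last pair of the 12 was added after values were seen. IGHV3-69-1, a pseudogene by annotation, had a log2 fold change of -0.44 (SE 0.598, edgeR, adjusted p = 0.615). With 1 library left out it ranged from -0.93 (without AMO1 gN1E C) to -0.11 (without H929 SCR C). IGKV3D-15 had 0.40 (SE 0.916, edgeR, adjusted p = 0.776). Over the alternatives it ranged from -1.004 (without AMO1 SCR C) to 1.19 (replicate block), and it was -0.78 without AMO1 gN1E A.

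Against the LP1 label, 75.9% of genes passed for AMO1 and 74.6% for H929 in the same fit. Segments that passed the low-count filter through the line in which they led had to differ, so no count of them is given. IGLV3-9 was measured under both H929 and LP1 labels, at 1.23 ± 0.219 and 3.15 ± 0.345 CPM (SD, n = 6 each; log2 fold change -1.53, SE 0.138, adjusted p = 6.32e-12 in edgeR), and its groups did not overlap. For IGKV3-11 the log2 fold change of AMO1 against LP1 was 1.41 (SE 0.91, edgeR, adjusted p = 0.178). Without LP1 SCR B it was 3.78 (edgeR, adjusted p = 1.13e-20), and it passed as well with limma-voom (log2 fold change 2.73, adjusted p = 0.00318) and with the replicate block in edgeR (2.84, adjusted p = 0.0143). Over all alternatives the adjusted p ranged from 1.13e-20 to 0.262. For H929 against LP1 it was 1.16 (SE 0.915, edgeR, adjusted p = 0.270) and 3.53 without LP1 SCR B (edgeR, adjusted p = 5.81e-20; range over the alternatives 5.81e-20 to 0.365). It passed there too with limma-voom (2.49, adjusted p = 0.00648) and with the replicate block in edgeR (2.61, adjusted p = 0.0215).

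Libraries of a line also differed within the kappa class. IGKV3D-20 had 38.1 to 72.7 counts per 100 counts of IGKV3-20 under the AMO1 label and 38.7 to 86.8 under H929. AMO1 SCR C, H929 SCR A and H929 SCR C had the highest ratios. Under the AMO1 label the coefficient of variation over the 6 libraries was 15.2% for IGKV3-20 and 9.20% for the sum of the pair. Under H929 it was 22.9% and 13.1%. IGHV3-30 and IGLV3-21 varied less there, at 4.67% and 6.37%, and IGHV3-23 more, at 25.5%.

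IGKV3-15, the leading segment of the LP1 label, was uneven in the libraries of the other labels. Under AMO1 it had 35, 1086 and 31 counts in SCR A, C and D and 1255, 13 and 604 counts in gN1E A, C and D. Under H929 it had 1237, 27 and 16 counts in SCR A, B and C and 823, 22 and 23 counts in gN1E A, B and C. It was thus at 604 counts or more in 5 of the 12 libraries and at 35 or fewer in the other 7, with high and low libraries in each gapmeR group. The highest, AMO1 gN1E A, was at 1.65% of the mean LP1-label level in CPM. IGKJ1, a joining segment with 1289 to 2602 counts under the LP1 label, had 0 counts in these 12 libraries. The source of the IGKV3-15 counts was not tested.

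**Figure D3:**
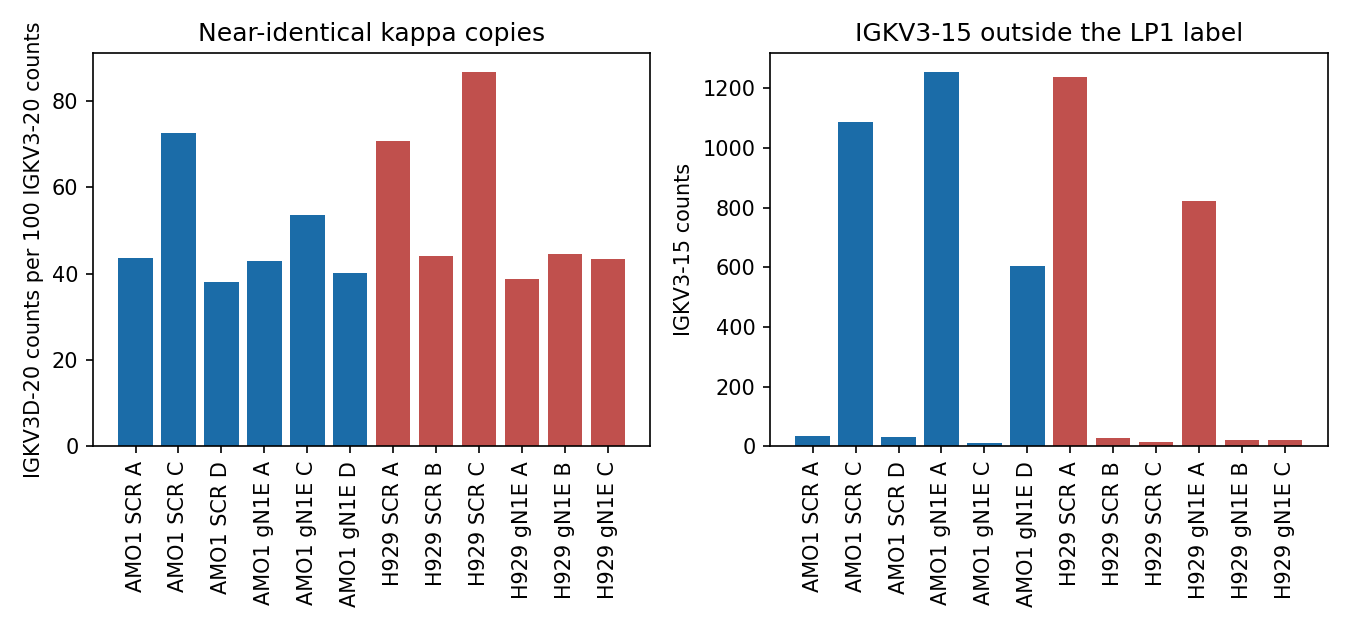
Left, counts of IGKV3D-20 per 100 counts of IGKV3-20; right, counts of IGKV3-15, each in the 12 libraries labelled AMO1 and H929. The ratio ranges from 38.1 to 86.8, and IGKV3-15 is at 604 counts or more in 5 libraries and at 35 or fewer in the other 7.

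Between gapmeR labels, IGHV3-23 was the segment that passed the test under the AMO1 label. It had 1741, 1543 and 1693 CPM in SCR A, C and D and 1908, 2212 and 1858 CPM in gN1E A, C and D, and every gN1E library lay above every SCR library (log2 fold change 0.30, SE 0.0662, adjusted p = 0.0205 in edgeR). It was 1 of 24 segments tested, beside 2.06% of all 22933 genes. The call was lost without SCR C (edgeR, adjusted p = 0.0627), SCR D (adjusted p = 0.0649) or gN1E C (adjusted p = 0.157). Over the alternatives its adjusted p ranged from 5.06e-06 to 0.157. IGHV3-21 had 52.3, 44.3 and 44.9 CPM in SCR A, C and D and 50.8, 58.1 and 63.3 CPM in gN1E A, C and D, and its groups overlapped (log2 fold change 0.32, SE 0.0842, adjusted p = 0.0716 in edgeR). Under the AMO1 label, libraries of the same letter were weakly alike, and no stated design pairs them. With the replicate letter as a block 2 segments passed, IGHV3-23 (edgeR, adjusted p = 0.0406) and IGHV3-21 (adjusted p = 0.0316). These were 2 of 24, beside 1394 of 22933 genes in that fit, against 473 of 22933 without the block. DESeq2 gave 2 of 24 segments beside 619 of 22932 genes, and edgeR gave 2 of 24 beside 404 of 22666 without SCR A and 2 of 22 beside 555 of 22783 without gN1E A.

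Under the H929 label 0 of 37 segments passed in edgeR, beside 5.47% of all 23499 genes. An unadjusted p under 0.05 was seen for 4, with no share of all genes at that level, so no excess is read from it. DESeq2 gave 0 beside 1317 of 23498 genes, and limma-voom gave 1, IGKV3-20, beside 998 of 23499. IGKV3-20 had 1032, 1547 and 876 CPM in SCR A, B and C and 1543, 1489 and 1586 CPM in gN1E A, B and C, with SCR B among the gN1E values and SCR A and C below them (log2 fold change 0.46, SE 0.255, adjusted p = 0.469 in edgeR). In SCR A and C, IGKV3D-20 had 70.8 and 86.8 counts per 100 of IGKV3-20, against 38.7 to 44.7 in the other H929-label libraries. Its own log2 fold change was -0.11 (SE 0.0521, adjusted p = 0.261 in edgeR). The pair's sum was at 74.7% and 69.4% of its AMO1-label mean in SCR A and C, and at 90.7% or more in the others. The part of the split within the pair was not tested. Without SCR B, IGKV3-20 and IGLV3-21 passed, 2 of 37 segments beside 1272 of 23339 genes, and the log2 fold change of IGKV3-20 was 0.75 (edgeR, adjusted p = 1.78e-11; range over the alternatives 1.78e-11 to 0.702). IGHV3-23 had 2106, 1981 and 1474 CPM in SCR A, B and C and 1259, 1842 and 1080.0 CPM in gN1E A, B and C, and its groups overlapped (log2 fold change -0.36, SE 0.287, adjusted p = 0.623 in edgeR). With 1 library left out the fold ranged from -0.62 (without gN1E B) to -0.20 (without gN1E C). The difference of IGHV3-23 between gapmeR labels differed between AMO1 and H929 labels by 0.65 on the log2 scale (SE 0.31, adjusted p = 0.772 for the interaction in edgeR, a test added after the data were seen).

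Under the LP1 label 0 of 15 segments passed in edgeR, beside 1.43% of all 23165 genes. An unadjusted p under 0.05 was seen for 3, again with no share of all genes at that level. DESeq2 gave 0 beside 512 of 23164 genes, and limma-voom gave 0 beside 262 of 23165. IGKV3-15 had 1584, 1462 and 1339.7 CPM in SCR A, B and D and 1652, 1636 and 1472 CPM in gN1E A, B and D, and its groups overlapped (log2 fold change 0.09, SE 0.0605, adjusted p = 0.563 in edgeR).

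**Figure D4:**
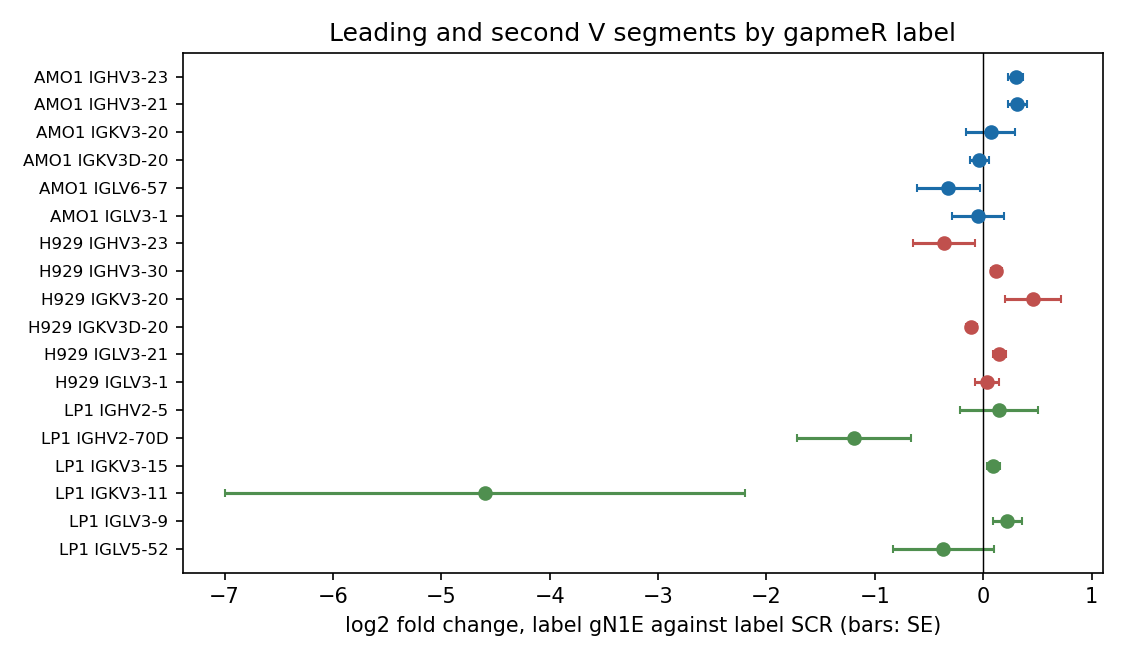
Log2 fold change of libraries labelled gN1E against those labelled SCR for the leading and second segments of each line, with bars of 1 SE. IGHV3-23 in AMO1 (0.30) passed the threshold, and IGKV3-11 in LP1 has the widest bar (SE 2.40).

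Summed V levels overlapped between the gapmeR labels in every line. In TMM-scaled CPM they were 4066 ± 513 in AMO1 SCR and 4525 ± 90.7 in AMO1 gN1E (SD, n = 3 each; exact two-sided permutation p = 0.3). They were 5092 ± 728 and 5179 ± 431 in H929 SCR and gN1E (SD, n = 3 each; exact permutation p = 1). In LP1 SCR and gN1E they were 1529.9 ± 124 and 1594 ± 118 (SD, n = 3 each; exact permutation p = 0.5). With 3 against 3 libraries the smallest p is 0.1. Over the family of 9 such tests, which also held the shares of the leading heavy and light segments, adjusted p ran from 0.675 to 1 (exact permutation). In bulk RNA, fewer cells with a join and less RNA per cell cannot be told apart.

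Constant genes, which encode the rest of each chain, were read beside the segments. IGHA1 had 8053 ± 953 CPM under the AMO1 label, 9213 ± 953 under H929 and 7.46 ± 0.884 under LP1 (SD, n = 6 each). IGHG1 had 739 ± 52.1 CPM under H929 against 1.53 ± 0.323 under AMO1 and 0.133 ± 0.0687 under LP1 (SD, n = 6 each). IGKC, the kappa constant gene, had 10777 ± 416, 9542 ± 548 and 6354 ± 197 CPM in the same order of labels (SD, n = 6 each). IGLC2, a lambda constant gene, had 0.596 ± 0.253, 15.4 ± 2.65 and 5.69 ± 0.755 CPM (SD, n = 6 each). IGHA1 was thus high under AMO1 and H929, IGHG1 under H929, and of these genes IGKC alone was high under LP1. AMO1 and NCI-H929 are known as IgA kappa lines and LP-1 as an IgG lambda line. Against these names, IGHG1 and IGLV3-21 lay under the H929 label and not under LP1. Also against the name, the LP1 label had 6354 CPM of IGKC and 5.69 CPM of IGLC2, and IGKV3-15 held 97.7% of its light V counts. IGHA1 went with the names, at 9213 CPM under H929 and 7.46 CPM under LP1. Under H929, however, IGHA1 was at 114% of its AMO1 mean, beside AMO1's leading segments IGHV3-23 (88.9%) and IGKV3-20 (83.8%). Whether the line labels were exchanged was not tested.

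Of 16 constant genes and JCHAIN together, 6, 9 and 7 had at least 10 counts in each library under the AMO1, H929 and LP1 labels, and IGHM and IGLC1 were at or under 3 counts in every library. Of 21 joining segments 5, 6 and 12 did, led by IGHJ3P, IGHJ6 and IGKJ1. Of 37 diversity segments, IGHD1-1 alone was counted, under the LP1 label. Of the 55 V orphons (V copies outside the immunoglobulin loci), 46, 44 and 44 had 0 counts in all libraries of the 3 labels. Of 10 receptor and secretion partners 7, 8 and 7 had at least 10 counts in each library, led by the chaperone HSP90B1.

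All 8 plasma cell markers had at least 10 counts in every library and summed to 17697, 20430 and 10683 CPM under the AMO1, H929 and LP1 labels. MZB1 and JCHAIN stand in other lists as well. SDC1 was the most abundant under AMO1 and H929 and JCHAIN under LP1. Of 5 B cell markers 1, 1 and 1 had at least 10 counts in each library under the AMO1, H929 and LP1 labels. They summed to 0.816, 2.76 and 1.57 CPM in the same order, led by CR2, CR2 and PAX5. Of 5 T cell markers 3, 3 and 2 reached that level. They summed to 28.8, 13.6 and 12.9 CPM, led by CD3E, with CD3D and CD2 at or under 3 counts in every library. Of 5 myeloid markers 0, 0 and 1 reached it. They summed to 0.439, 0.383 and 6.08 CPM, led by CD14, CD14 and CSF1R, with FCGR3A at or under 3 counts. Of 3 stromal markers 1 reached it under every label. They summed to 1.19, 1.15 and 0.854 CPM, all of it COL1A1, with COL3A1 and DCN at 0 counts in every library. The part of these cell types in the V levels was not tested.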

How the data were processed

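Gene expression was measured by stranded total RNA-seq in 18 libraries. Per the labels and file headers, the authors aligned reads of 2 × 150 bases with STAR 2.7.10a to hg38 and counted them by strand with featureCounts 1.6.4 on GENCODE release 43. The values are raw counts as the authors deposited them, and reads placed on several sites or genes were not counted. Symbols matched 62639 of 62703 identifiers, and gene types came from GENCODE release 44. The series text gives 48 days and the treatment protocol 48 h, and 48 h is used.

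CPM used library totals of 28061606 to 69937229 counts. Each line was fitted with edgeR 4.0.16 in R 4.3.3 (TMM, robust quasi-likelihood, Benjamini-Hochberg, threshold 0.05) on genes with at least 10 counts in at least 1 of its 6 libraries, and lines were compared in 1 fit of 18. Shares and summed levels used exact permutation tests in scipy 1.17.1. The fit was tested on simulated data. Wilson intervals (95%) and floors (3 counts) cover counting error only. Alternatives were DESeq2 1.42.0, limma-voom 3.58.1, other scaling and filters, the replicate block, other member sets and each library left out. The interaction test, the 12-base window, the genes that mark a line label, the last pair of shared segments and the joint leaving out of LP1 SCR B and the leading segments were chosen after seeing the data. Members and lists were chosen with earlier results of these data known. Named segments are the leading and second of each class and line by summed counts, those that passed between gapmeR labels, and up to 10 with a mean of at least 1 CPM under each of 2 line labels.

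Deviations from the group mean correlated at 0.222, 0.201 and 0.144 for the same letter in AMO1, against -0.311 to 0.0939 for different letters. No stated design pairs those libraries, and correlations this weak do not show that they were paired. Within groups no 2 libraries were identical, and the chi-square per degree of freedom was at least 7.07. Sequences were read from hg38 with pysam 0.24.0 and aligned with biopython 1.88. Python 3.11.15, pandas 2.3.3, numpy 2.4.6 and matplotlib 3.10.9 were used.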

Additional observations from a re-analysis of the deposited data

How the results depend on the processing

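Near-identical copies, 3 libraries a group and reads without a unique place limit these values. The causes of the changes below were not tested. Between gapmeR labels 1 of 24 segments passed under AMO1, beside 473 of 22933 genes. It was 2 of 24 beside 619 of 22932 with DESeq2, 2 of 83 beside 808 of 36147 without a filter, 2 of 24 beside 1394 of 22933 with the replicate block, and 0 to 2 beside 254 to 606 genes with 1 library left out. Under H929 it was 0 of 37 beside 1286 of 23499, 1 of 37 beside 998 of 23499 with limma-voom, 1 of 98 (IGLV3-21) beside 1629 of 37849 without a filter, and 0 to 2 beside 701 to 1272 genes with 1 library left out. Under LP1 it was 0 of 15 beside 332 of 23165 genes in edgeR, 0 beside 512 of 23164 with DESeq2 and 0 beside 262 of 23165 with limma-voom. With 1 library left out it was 0 beside 87 to 780 genes. In edgeR 3 segments had an unadjusted p under 0.05, with no share of all genes at that level to set beside them. Under H929 and LP1 the replicate block gave 0 segments each. That was beside 931 of 23499 genes under H929 and 243 of 23165 under LP1. Correlations for the same letter were -0.0229, -0.0608 and -0.117 under H929 and 0.195, -0.00419 and -0.0597 under LP1.

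The share of IGKV3-20 in light V counts under H929 was 48.1% per kilobase, and that of IGHV2-5 in heavy V counts under LP1 was 26.1% with V orphons added against 45.4% without. The orphon IGHV1OR21-1, named after its values were seen, then had more counts than IGHV2-5 in 5 of 6 libraries. The mean number of segments with at least 10 counts was 16.8, 28.3 and 10.3 under AMO1, H929 and LP1. It was 30.8, 42.5 and 18.8 at 3 counts and 10.3, 14.5 and 5 at 1 CPM. Thinned to the smallest total it was 21.0 under H929 and 6.99 under LP1. Without the leading segments the log2 ratio of summed V levels was 0.0136 under AMO1 and -1.36 under LP1. Under LP1 it was -0.0614 when LP1 SCR B was left out too, an alternative added after the data were seen. That library held 7450 such counts and the other 5 held 857 to 1422.

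With 1 library left out, the log2 fold change between gapmeR labels ranged from -0.12 to 0.22 for IGKV3-20 in AMO1 and from -0.0107 to 0.43 for IGHV2-5 in LP1. Between AMO1 and H929 labels it ranged from -1.07 to 2.60 for IGKV3-15 and from -1.004 to 0.79 for IGKV3D-15. Between AMO1 and LP1 labels it ranged from -1.56 to 0.11 for IGKV3D-15, which was 0.0248 with library size only. Of all values recomputed, 588 counted as the same, 24 moved, 12 lost and 14 gained a call, and 12 changed sign. For fold changes, the same meant that direction and side of the threshold were kept. For shares, numbers of segments and summed levels it meant a move smaller than the spread. For counts of called segments it meant an equal count or a small fold between counts (31 the same, 11 moved).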

Other observations

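Genes other than V segments were set against the line labels with thresholds chosen after values were seen, so no test is given. At 20 CPM or more in every AMO1-label library and with a median under 0.05 CPM under LP1, 28 genes were found. Their level in the libraries labelled H929 was 71.3% to 76.8% of the AMO1 mean. By the reverse rule 120 genes were found for the LP1 label, and their level in the libraries labelled H929 was 12.4% to 13.4% of the LP1 mean. Each set, taken as a whole, was thus counted in 6 of 6 libraries labelled H929, and the spread over its genes is not given. The rules did not use the H929-label libraries, so genes of either set need not be particular to AMO1 or LP1. In these libraries IGKJ1 had 0 counts and IGKV3-7 had 0 to 5. IGKV3-15 was there at 0.0254% to 1.49% of its mean LP1-label level in CPM. What cells these libraries hold could not be settled from the files.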
